A study of Mus musculus with 17 samples.

Results

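Colon tumors of mice without Tyk2 in any cell (Tyk2KO) were compared with tumors of mice whose Tyk2 gene carries loxP sites and is intact (Tyk2fl). The comparison takes 3 Tyk2KO and 7 Tyk2fl libraries, 10 of the 17 libraries of the series, chosen by the genotype in their labels and joined on gene identifiers. The counts of Tyk2KO tumors share a table with wild-type controls (Tyk2wt, 3 libraries), and those of Tyk2fl tumors with tumors lacking Tyk2 in intestinal epithelial cells (Tyk2DIEC, 4 libraries). Tyk2fl tumors had a lower level of interferon-induced genes than Tyk2wt tumors, so the comparison asks which losses of Tyk2KO tumors remain against a second Tyk2-intact group with that lower level.

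All mice had received azoxymethane (AOM), a mutagen, and repeated dextran sulfate sodium (DSS), which inflames the colon, and single tumors were cut from the opened colon. By the study's methods the Tyk2KO line is a germline deletion, made by crossing floxed mice with a cre deleter line, in which exon 3 with the start codon is missing. The Tyk2fl mice were cre-negative littermates of conditional crosses. Both lines were kept on a C57BL/6 background. The labels do not say which libraries came from separate mice, so the p-values measure the spread between these libraries. Counts of the 2 genotypes were deposited in separate tables, no source used here names sequencing batches, and genotype and table cannot be told apart between Tyk2KO and Tyk2fl. The comparison of Tyk2KO with Tyk2wt lies within 1 table.

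Tyk2 is a Janus kinase bound to the receptors for type I interferons, the IL-10 family and the IL-12 family. Ligand binding lets it phosphorylate Stat proteins, which enter the nucleus and switch on target genes. Type I interferons act through a complex of Stat proteins and Irf9 at interferon-stimulated response elements, and interferon gamma acts through Stat pairs at gamma-activated sites. Tyk2 is not part of the interferon gamma receptor, but IL-12 signaling through Tyk2 makes lymphocytes produce interferon gamma.

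The Tyk2KO libraries held 19922606 to 21707373 counts on genes and the Tyk2fl libraries 29777763 to 35427965, while the Tyk2DIEC libraries in the table of Tyk2fl held 19129696 to 20334948. On the first principal component, with 33.9% of the variance of the 500 most variable genes, the 3 Tyk2KO libraries lay at -27.75 to -24.39 and the 7 Tyk2fl libraries at 2.88 to 18.8. On the second component, Tyk2fl replicates 5 to 7 stood apart from the other Tyk2fl libraries (-24.84 to -16.62 against 6.90 to 16.3), and mitochondrial genes took 3.78% to 4.88% of their counts against 2.5% to 3.18% in replicates 1 to 4. Levels are given as CPM, the scaled share of a library's counts that a gene takes, and differences as log2 fold changes. Xist, the RNA of the inactive X chromosome, was at 0.146 to 0.641 CPM in the Tyk2KO libraries and between 0.751 and 1273 CPM (median 3.08) in the Tyk2fl libraries, where replicates 1 to 3 were high. Ddx3y, a gene of the Y chromosome, was at 41.8 to 74.1 CPM in Tyk2KO, 78.7 to 96.6 CPM in Tyk2wt and 66.7 to 90.3 CPM in Tyk2fl replicates 5 to 7, and at most 0.056 CPM in Tyk2fl replicates 1 to 4. The Tyk2KO and Tyk2wt libraries thus had the pattern of males and Tyk2fl replicates 1 to 3 that of females, while replicate 4 was low in both genes. Tyk2fl replicates 5 to 7 match the Tyk2KO libraries in this respect, and the losses that did not keep their call against them alone are named at the end. Total Tyk2 RNA does not check the deletion, because reads on the remaining exons still count: Tyk2 was at 57.6, 57.3 and 58.4 CPM in Tyk2KO and between 42.7 and 54.4 CPM (median 51.1) in Tyk2fl libraries, a difference that missed the threshold (adjusted p = 0.0864, edgeR).

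Against Tyk2fl tumors, Tyk2KO tumors had lower levels of antiviral interferon-stimulated genes such as Ifi27l2a, Oas2, Ifi44 and Slfn5, of the MHC class I genes B2m, Tap1 and Nlrc5, and of the chemokine gene Ccl7. They had higher levels of Il22ra1, a subunit of the IL-22 receptor, of Ltf, the gene of the iron-binding protein lactoferrin, and of 19 of 90 tested immunoglobulin V genes. The calls of B2m, Tap1 and Nlrc5 were lost with Tyk2fl replicates 5 to 7 alone. Against Tyk2wt, Il22ra1 and Ltf were not called (log2 differences of 0.13 and 0.62), and Il22ra1 was lower in Tyk2fl than in Tyk2wt (-1.10). Of 17876 genes tested, 198 were lower and 86 higher in Tyk2KO tumors at an adjusted p under 0.05 and over 2-fold (edgeR's quasi-likelihood test with Benjamini-Hochberg adjustment), which is 1.11% and 0.481% of the genes tested. Of the 198 lower genes 71 were protein coding and 121 pseudogenes, and of the 86 higher genes 53 were protein coding and 19 immunoglobulin V genes. In 190 of the 198 lower genes every Tyk2KO library lay below every Tyk2fl library, a pattern found in 8.06% of all genes tested. The 198 were chosen by their call on these libraries, so this count follows from the choice and is no independent support. Bulk RNA cannot tell fewer cells of a type from less RNA per cell.

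Against Tyk2wt, 195 genes were lower in Tyk2KO tumors (1.21% of 16179 tested), and 191 of them were also tested against Tyk2fl. Of these 191 losses, 34 were also called lower against Tyk2fl (17.8%), while 98 of all 16156 genes tested in both comparisons were (0.607%). Both comparisons use the same 3 Tyk2KO libraries, so a low value there enters both. Another 44 losses were over 2-fold lower than in Tyk2fl with an adjusted p of 0.05 or more. A further 16 passed the adjusted p with less than a 2-fold difference, 88 were lower by less than 2-fold without passing it, and 9 were not lower. The median log2 difference of the 34 losses that held was -1.54 against Tyk2fl and -2.40 against Tyk2wt. For the 157 that did not hold the medians were -0.77 and -1.61, and over all genes tested they were -0.02 and 0.00.

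**Figure D1:**
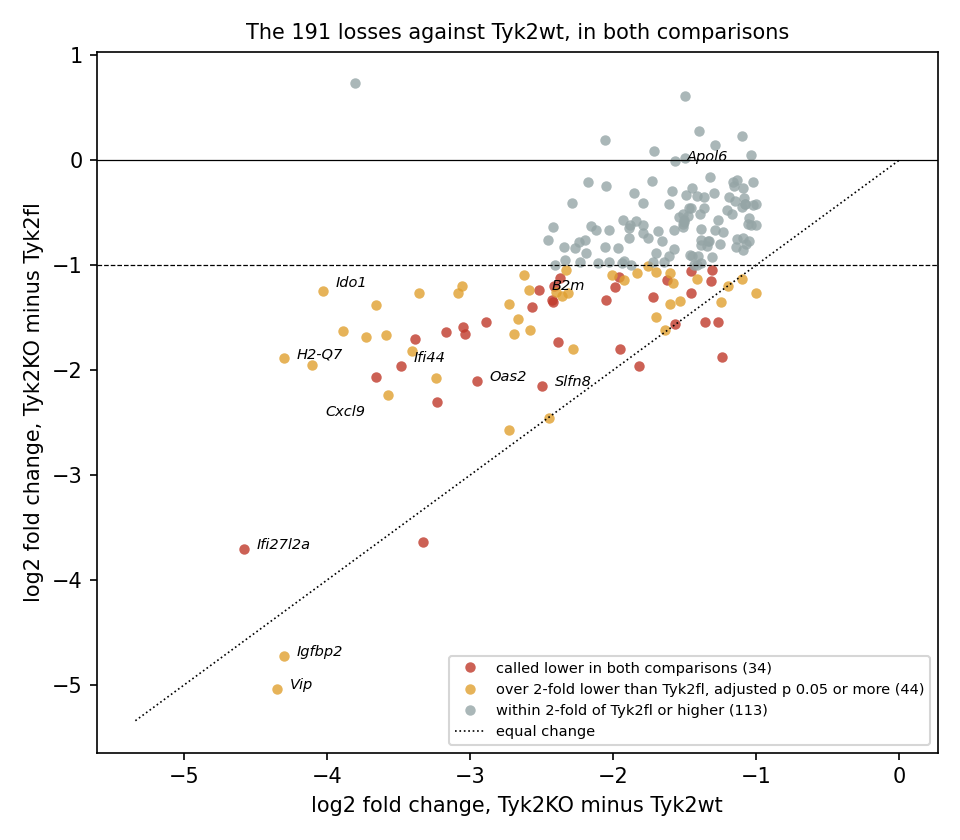
Log2 fold change against Tyk2wt (horizontal) and against Tyk2fl (vertical) for the 191 losses, 1 point a gene. Most points lie above the dotted line of equal change, and the 34 losses called in both comparisons lie below the dashed line of a 2-fold drop. Both axes share the Tyk2KO libraries.

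The difference between both comparisons is that between the control groups, and it was tested directly as Tyk2fl against Tyk2wt. Of the 157 losses that did not hold, 79 were lower in Tyk2fl than in Tyk2wt at an adjusted p under 0.05 and none of the 157 was higher, with a median log2 difference of -0.94. Among the 34 that held 14 were lower and none higher, with a median of -0.80. Over all 17984 genes tested between the control groups 3.0% were lower and 2.12% higher. The losses were chosen with the same Tyk2wt libraries, so these counts describe the losses and are no independent support. The control groups also lie in separate tables.

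The ligands were at the limit of detection. Interferon gamma (Ifng) had 0 to 1 counts in the Tyk2KO, 2 to 8 in the Tyk2fl and 5 to 6 in the Tyk2wt libraries, and Ifnb1, encoding interferon beta, had at most 1 count in any of the 13 libraries. Of 15 genes of interferons and inducing cytokines 6 could be tested and none was called by edgeR, DESeq2 or limma voom, while 2 had an unadjusted p under 0.05 in edgeR. Il18, a cytokine that raises interferon gamma, was at 62.7, 57.4 and 63.4 CPM in Tyk2KO and between 44.3 and 59.7 CPM (median 50.2) in Tyk2fl libraries (adjusted p = 0.0602, edgeR). Il23a, the IL-23 subunit, was at 18.8, 10.5 and 11.0 CPM against 16.0 to 25.1 CPM (median 19.4), with overlapping groups.

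Among 14 tested receptor genes coupled to Tyk2 or interferon, Il22ra1 alone was called, and it was higher, where 0.481% of all genes were. Il22ra1, which lets epithelial cells sense IL-22, stood at 18.3, 17.1 and 15.1 CPM in the 3 Tyk2KO libraries and between 5.89 and 9.01 CPM (median 7.12) in the 7 Tyk2fl libraries. The groups did not overlap, and the log2 difference was 1.25 (SE 0.15, adjusted p = 0.00149, edgeR). The 3 Tyk2wt libraries were at 11.5, 17.6 and 17.2 CPM, within or near the Tyk2KO range. The log2 difference of Tyk2KO to Tyk2wt was 0.13 (adjusted p = 0.685), and that of Tyk2fl to Tyk2wt was -1.10 (adjusted p = 0.00889). Il22 itself was at most 0.444 CPM in any Tyk2fl and 0.093 CPM in any Tyk2KO library. The interferon receptor subunits Ifnar1 (log2 difference 0.03, adjusted p = 0.869) and Ifngr1 (0.22, adjusted p = 0.126) missed the threshold.

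Of 23 genes of Jak kinases, Stat and Irf transcription factors and their feedback inhibitors, Socs1 was called lower and none higher. Over all genes 1.11% were lower and 0.481% higher. Socs1, an inhibitor of Jak kinases induced by interferons, was at 4.03, 3.70 and 3.30 CPM in Tyk2KO, between 5.82 and 10.7 CPM (median 7.12) in Tyk2fl and at 7.94 to 11.4 CPM in Tyk2wt libraries. All Tyk2KO values lay below all others, with log2 differences of -1.04 to Tyk2fl (SE 0.19, adjusted p = 0.0132, edgeR) and -1.31 to Tyk2wt (adjusted p = 0.0147). Irf9, the DNA-binding partner of Stat proteins in the type I complex, passed the adjusted p below 2-fold (-0.46, adjusted p = 0.0270), without overlap of the libraries. Irf7, which amplifies type I interferon, had a log2 difference of -0.54 to Tyk2fl (adjusted p = 0.0504) against -1.54 to Tyk2wt (adjusted p = 0.0140). Stat2 (-0.37), Usp18 (-0.80), Irf1 (-0.07), Irf8 (-0.03) and Stat3 (0.06) missed the threshold against Tyk2fl, each with overlapping libraries.

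Type I interferon-stimulated antiviral genes held more losses than the other lists. Of 46 tested members 11 were lower in Tyk2KO than in Tyk2fl and none was higher, against the background of 1.11% and 0.481%, and the median log2 difference was -0.64. Of the 32 members lost against Tyk2wt, these 11 held: Ifi27l2a, Slfn8, Oas2, Ifi44, Oas3, Isg15, Oasl2, Slfn5, Rtp4, Bst2 and Trim30a. The level of the list, as the mean of log2(CPM + 1) over its genes, was 3.44 to 3.69 in Tyk2KO, 3.91 to 4.42 in Tyk2fl and 4.69 to 5.27 in Tyk2wt libraries. On this scale the 3 ranges did not overlap, and Tyk2fl lay between the other groups. The summed CPM of the list overlapped between Tyk2KO (1210 to 1393) and Tyk2fl (1310 to 1823).

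**Figure D2:**
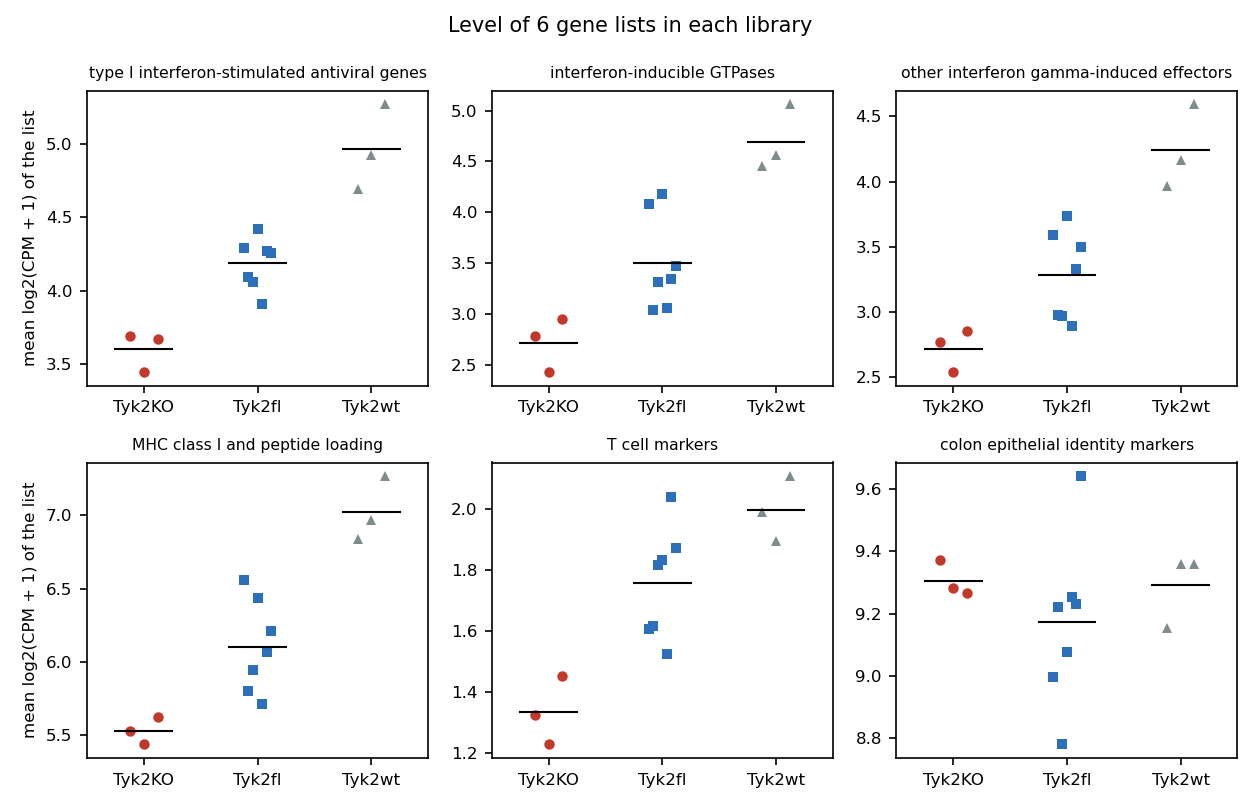
Mean log2(CPM + 1) over the genes of 6 lists in each library, with a bar at the group mean. In the interferon-induced and MHC class I lists the 3 Tyk2KO libraries lie below all 7 Tyk2fl and the Tyk2fl below all 3 Tyk2wt libraries, while the colon epithelial list overlaps between groups.

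Ifi27l2a, an interferon-induced gene of mitochondrial membranes, showed the largest drop of the list. It was at 0.321, 0.341 and 0.325 CPM in Tyk2KO, between 3.18 and 6.19 CPM (median 3.86) in Tyk2fl and at 8.94, 5.70 and 9.35 CPM in Tyk2wt libraries. Even the highest Tyk2KO library stood far below the lowest Tyk2fl library. The log2 difference was -3.70 to Tyk2fl (SE 0.32, adjusted p = 0.000298, edgeR) and -4.58 to Tyk2wt (adjusted p = 0.000846), and that between Tyk2fl and Tyk2wt missed the threshold (-0.87, adjusted p = 0.0573).

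Oas2, Oas3 and Oasl2 belong to the oligoadenylate synthetases and their relatives, sensors of double-stranded RNA that activate RNase L or related defences. Oas2 was at 2.06, 1.65 and 2.46 CPM in Tyk2KO and between 4.79 and 12.6 CPM (median 9.30) in Tyk2fl libraries, a log2 difference of -2.10 (SE 0.31, adjusted p = 0.0061, edgeR) beside -2.95 to Tyk2wt. Oas3 was at 2.61, 1.90 and 1.86 CPM against 2.89 to 9.15 CPM (median 6.22), so that the lowest Tyk2fl library came close to the Tyk2KO range (log2 difference -1.66, adjusted p = 0.0169). Oasl2 was at 13.6, 10.6 and 12.6 CPM against 22.6 to 41.1 CPM (median 32.0), a log2 difference of -1.35 (adjusted p = 0.00327) beside -2.42 to Tyk2wt. In all of these genes every Tyk2KO library lay below every Tyk2fl library.

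Ifi44, an interferon-induced cytoplasmic protein gene, was at 1.01, 1.02 and 1.39 CPM in Tyk2KO, between 3.01 and 6.39 CPM (median 4.40) in Tyk2fl and at 10.8, 11.1 and 16.6 CPM in Tyk2wt libraries. The 3 groups formed separate steps. The log2 difference was -1.96 to Tyk2fl (adjusted p = 0.00598, edgeR), -3.48 to Tyk2wt (adjusted p = 0.000846) and -1.503 between Tyk2fl and Tyk2wt (adjusted p = 0.00852). Slfn8 and Slfn5, Schlafen genes induced by type I interferon, differed from Tyk2fl by -2.15 (adjusted p = 0.0120) and -1.34 (adjusted p = 0.00104) on the log2 scale. Slfn5 was at 6.003, 5.11 and 7.34 CPM in Tyk2KO and 12.5 to 17.6 CPM (median 16.5) in Tyk2fl libraries, a narrow spread in both groups. Rtp4, a chaperone of membrane receptors induced by interferon, was at 7.29, 6.18 and 6.14 CPM against 11.97 to 21.4 CPM (median 15.9), without overlap (log2 difference -1.33, adjusted p = 0.0026). Isg15, a ubiquitin-like modifier, Bst2, which tethers budding virus to the cell, and Trim30a, a ubiquitin ligase, had log2 differences of -1.40, -1.14 and -1.12 and are named after their values were seen.

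Members that did not hold included the Ifit genes, whose products bind foreign RNA ends. Ifit2 was at 31.1, 17.9 and 18.5 CPM in Tyk2KO, between 15.6 and 37.0 CPM (median 29.2) in Tyk2fl and at 78.7, 78.0 and 123 CPM in Tyk2wt libraries. Tyk2KO and Tyk2fl values overlapped (log2 difference -0.24, adjusted p = 0.629, edgeR), while Tyk2fl was lower than Tyk2wt by 1.79 on the log2 scale (adjusted p = 0.00599). Ifit1 and Ifit3 had log2 differences of -0.96 (adjusted p = 0.0825) and -0.996 (adjusted p = 0.0942) to Tyk2fl, beside -2.34 and -2.41 to Tyk2wt.

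**Figure D3:**
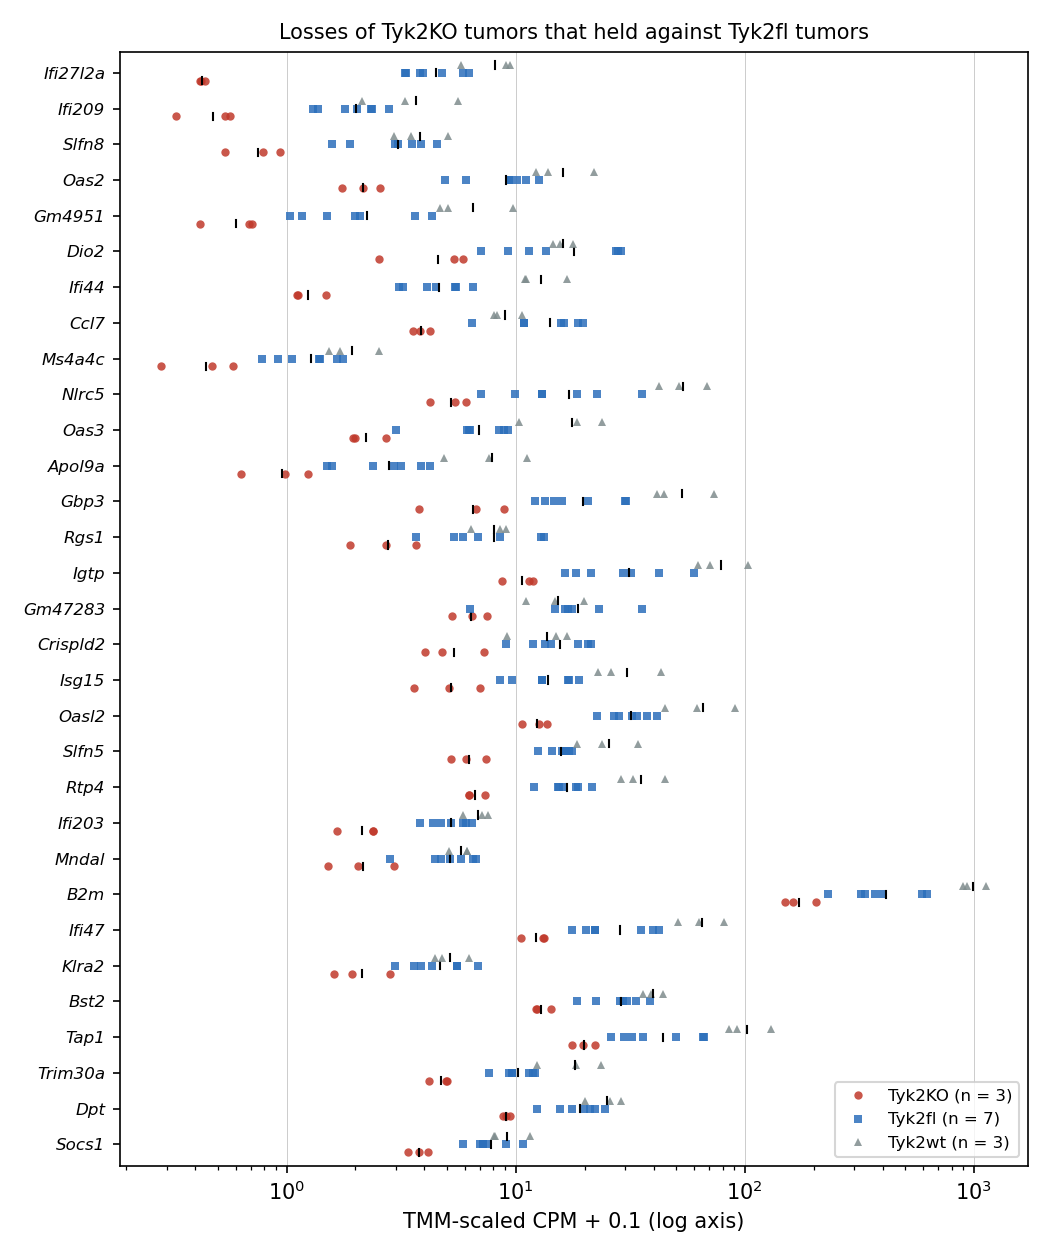
CPM plus 0.1 on a log axis in every Tyk2KO, Tyk2fl and Tyk2wt library for 31 of the 32 protein-coding losses that held, 1 row a gene, ordered by the drop against Tyk2fl, with a black tick at the group mean. In rows such as Ifi27l2a, Ifi44 and Slfn5 the Tyk2KO points stand clear of the Tyk2fl points, and in rows such as Rgs1 and Mndal they overlap.

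The sequences before the start sites of 4 losses that held are shown because their genes had the largest drops against Tyk2fl among the interferon and MHC class I lists with a RefSeq entry (GRCm38.p6, all on the minus strand, 250 bases before the start, 5′ to 3′). Capitals mark matches to GAAANNGAAA or its reverse complement TTTCNNTTTC, letters like those of an interferon-stimulated response element. Overlapping matches run together.
Slfn8, chr11:83020811-83021060: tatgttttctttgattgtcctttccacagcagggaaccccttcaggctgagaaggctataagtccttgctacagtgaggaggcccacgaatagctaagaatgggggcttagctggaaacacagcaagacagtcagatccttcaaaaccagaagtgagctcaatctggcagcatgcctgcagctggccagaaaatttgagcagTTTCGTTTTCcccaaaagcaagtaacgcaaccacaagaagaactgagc
Ifi44, chr3:151749911-151750160: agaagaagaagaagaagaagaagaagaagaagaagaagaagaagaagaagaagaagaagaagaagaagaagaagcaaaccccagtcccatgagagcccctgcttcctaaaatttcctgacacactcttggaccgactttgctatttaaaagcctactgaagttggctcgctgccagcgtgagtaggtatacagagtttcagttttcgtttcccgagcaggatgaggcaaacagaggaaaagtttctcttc
Oas3, chr5:120777660-120777909: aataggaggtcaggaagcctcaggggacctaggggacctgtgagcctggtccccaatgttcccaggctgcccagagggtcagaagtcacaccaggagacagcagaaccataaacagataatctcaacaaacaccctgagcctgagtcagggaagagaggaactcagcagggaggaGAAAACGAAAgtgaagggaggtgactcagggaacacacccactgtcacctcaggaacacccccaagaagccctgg
Apol9a, chr15:77411081-77411330: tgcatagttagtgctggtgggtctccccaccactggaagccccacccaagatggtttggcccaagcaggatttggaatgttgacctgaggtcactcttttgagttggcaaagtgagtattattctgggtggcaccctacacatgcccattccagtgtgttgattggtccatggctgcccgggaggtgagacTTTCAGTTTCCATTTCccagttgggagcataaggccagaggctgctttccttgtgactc
Slfn8 and Oas3 held 1 match each, starting 48 and 75 bases before the start site, Apol9a held 2 overlapping matches starting 59 and 53 bases before it, and these letters were not in the window of Ifi44. No window of the 4 held TTCNNNGAA, letters like those of a gamma-activated site. Slfn8 and Apol9a have another entry with a start site further downstream, whose windows hold the same matches. Of the 34 losses that held, 23 had an entry, and 13 of these (56.5%) held GAAANNGAAA, against 29 of 110 losses that did not hold (26.4%) and 407 of 12310 genes tested with an entry (3.31%). All 32851 RefSeq windows of this length held it in 2.98% of cases. For TTCNNNGAA the shares were 17.4% (4 of 23), 12.7% (14 of 110) and 7.32% of genes tested, and 7.02% of all windows. A match is a description of letters and shows no binding. Only these exact letters were searched, so a missing match, as in Ifi44, does not show that a similar element is absent.

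Interferon-inducible GTPases, which attack vacuoles of intracellular pathogens and are strong targets of interferon gamma, had the lowest median of the interferon lists against Tyk2fl (log2 difference -1.08 over 18 tested genes, 17 of them below 0). Against Tyk2fl 3 of 18 were called lower, and against Tyk2wt 17 of 17, where 1.11% and 1.21% of all genes were. The 3 that held were Gbp3, Igtp and Ifi47. Igtp was at 11.3, 8.61 and 11.8 CPM in Tyk2KO, between 16.3 and 60.0 CPM (median 29.2) in Tyk2fl and at 62.6, 70.1 and 104 CPM in Tyk2wt libraries. The groups did not overlap, but the Tyk2fl libraries spread widely (log2 difference -1.54, SE 0.39, adjusted p = 0.0377, edgeR). Gbp3 was at 6.64, 3.70 and 8.83 CPM against 12.1 to 30.2 CPM (median 15.8), and Ifi47 at 13.1, 10.5 and 13.2 CPM against 17.5 to 42.3 CPM (median 22.2). Tgtp1 and Tgtp2, near-identical copies whose reads can be split between them, had log2 differences of -1.63 (adjusted p = 0.135) and -1.66 (adjusted p = 0.111) to Tyk2fl, and of -3.89 and -3.59 to Tyk2wt. Gbp7 passed the adjusted p (0.0499) just short of 2-fold (-0.97). Of the 18 genes, 10 were called lower in Tyk2fl than in Tyk2wt, where the background is 0.895%.

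Of 21 other effectors induced by interferon gamma, 1 held, Apol9a, and 17 of 20 were lower against Tyk2wt. Over all genes 1.11% were lower against Tyk2fl and 1.21% against Tyk2wt. Apol9a, an apolipoprotein L gene with the close copy Apol9b, was at 1.15, 0.535 and 0.883 CPM in Tyk2KO and between 1.41 and 4.12 CPM (median 2.86) in Tyk2fl libraries (log2 difference -1.64, SE 0.41, adjusted p = 0.0367, edgeR). Ido1, which degrades tryptophan and restrains T cells, was at 4.58, 2.24 and 3.35 CPM in Tyk2KO, between 2.67 and 20.7 CPM (median 4.17) in Tyk2fl and at 28.3, 53.9 and 84.4 CPM in Tyk2wt libraries. Tyk2KO and most Tyk2fl libraries shared the same low range. Its log2 difference was -4.03 to Tyk2wt (adjusted p = 0.00395) and -1.25 to Tyk2fl (adjusted p = 0.291), and that of Tyk2fl to Tyk2wt was -2.77 (adjusted p = 0.0268).

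The chemokines of this list, which draw T cells through Cxcr3, lay just outside the threshold. Cxcl9 was at 3.44, 2.48 and 4.74 CPM in Tyk2KO and between 5.38 and 37.8 CPM (median 15.1) in Tyk2fl libraries, without overlap (log2 difference -2.24, SE 0.66, adjusted p = 0.0642, edgeR). Cxcl10 was at 2.70, 2.58 and 3.58 CPM against 4.54 to 15.2 CPM (median 6.52), also without overlap (-1.62, adjusted p = 0.0507). Acod1, which makes itaconate in macrophages, had a log2 difference of -1.06 with an adjusted p of 0.0501. Complement C2 passed the adjusted p (0.00956) at -0.97. Cd274, encoding the checkpoint ligand PD-L1, was at 6.78, 4.87 and 6.42 CPM in Tyk2KO and between 6.04 and 11.0 CPM (median 8.19) in Tyk2fl libraries (-0.41, adjusted p = 0.216), and Tyk2fl was lower than Tyk2wt by 1.37 on the log2 scale (adjusted p = 0.0110). Apol6 was at 1.65, 1.51 and 1.67 CPM against 0.908 to 2.70 CPM in Tyk2fl (-0.01, adjusted p = 0.990) and lower than in Tyk2wt by 1.57 (adjusted p = 0.0120).

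MHC class I and peptide loading genes, which present peptides to CD8+ T cells, were lower against Tyk2fl in 3 of 26 cases and against Tyk2wt in 15 of 26, and these 3 held. The shares over all genes were 1.11% and 1.21%. B2m, the light chain of every class I molecule, was at 163, 150 and 205 CPM in Tyk2KO, between 231 and 627 CPM (median 371) in Tyk2fl and at 898, 938 and 1133 CPM in Tyk2wt libraries. The groups formed 3 steps, with log2 differences of -1.24 to Tyk2fl (SE 0.28, adjusted p = 0.0270, edgeR) and -2.52 to Tyk2wt (adjusted p = 0.000846). Nlrc5, the transactivator of class I genes, was at 5.32, 4.14 and 5.996 CPM against 6.98 to 35.7 CPM (median 12.9) in Tyk2fl (-1.71, SE 0.45, adjusted p = 0.0460). Tap1, a subunit of the peptide transporter, was at 19.6, 17.6 and 22.2 CPM against 26.1 to 66.4 CPM (median 35.8), with the adjusted p at the threshold (-1.12, SE 0.30, adjusted p = 0.0499). In the 10 fits without 1 library, B2m kept its call in 7, Nlrc5 in 3 and Tap1 in 2. The non-classical genes H2-Q6 and H2-Q7, close copies of each other, overlapped with Tyk2fl (-1.95, adjusted p = 0.0699, and -1.89, adjusted p = 0.0614), beside -4.10 and -4.30 to Tyk2wt. H2-Q7 reached 5.18 to 8.09 CPM in Tyk2KO, 7.43 to 52.0 CPM in Tyk2fl and 91.5 to 171 CPM in Tyk2wt libraries.

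MHC class II genes, carried by antigen-presenting cells and by epithelium under interferon gamma, were called lower against Tyk2wt in 7 of 12 cases. The share over all genes was 1.21%. Against Tyk2fl none of 11 was called by edgeR, DESeq2 or limma voom, 3 had an unadjusted p under 0.05 in edgeR, and all 11 log2 differences were below 0 with a median of -0.58. H2-Ab1 was at 72.9, 56.0 and 72.7 CPM in Tyk2KO and between 59.6 and 143 CPM (median 104) in Tyk2fl libraries, overlapping at the lower end. Its log2 difference was -0.59 to Tyk2fl (adjusted p = 0.136) and -1.505 to Tyk2wt (adjusted p = 0.00382).

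**Figure D4:**
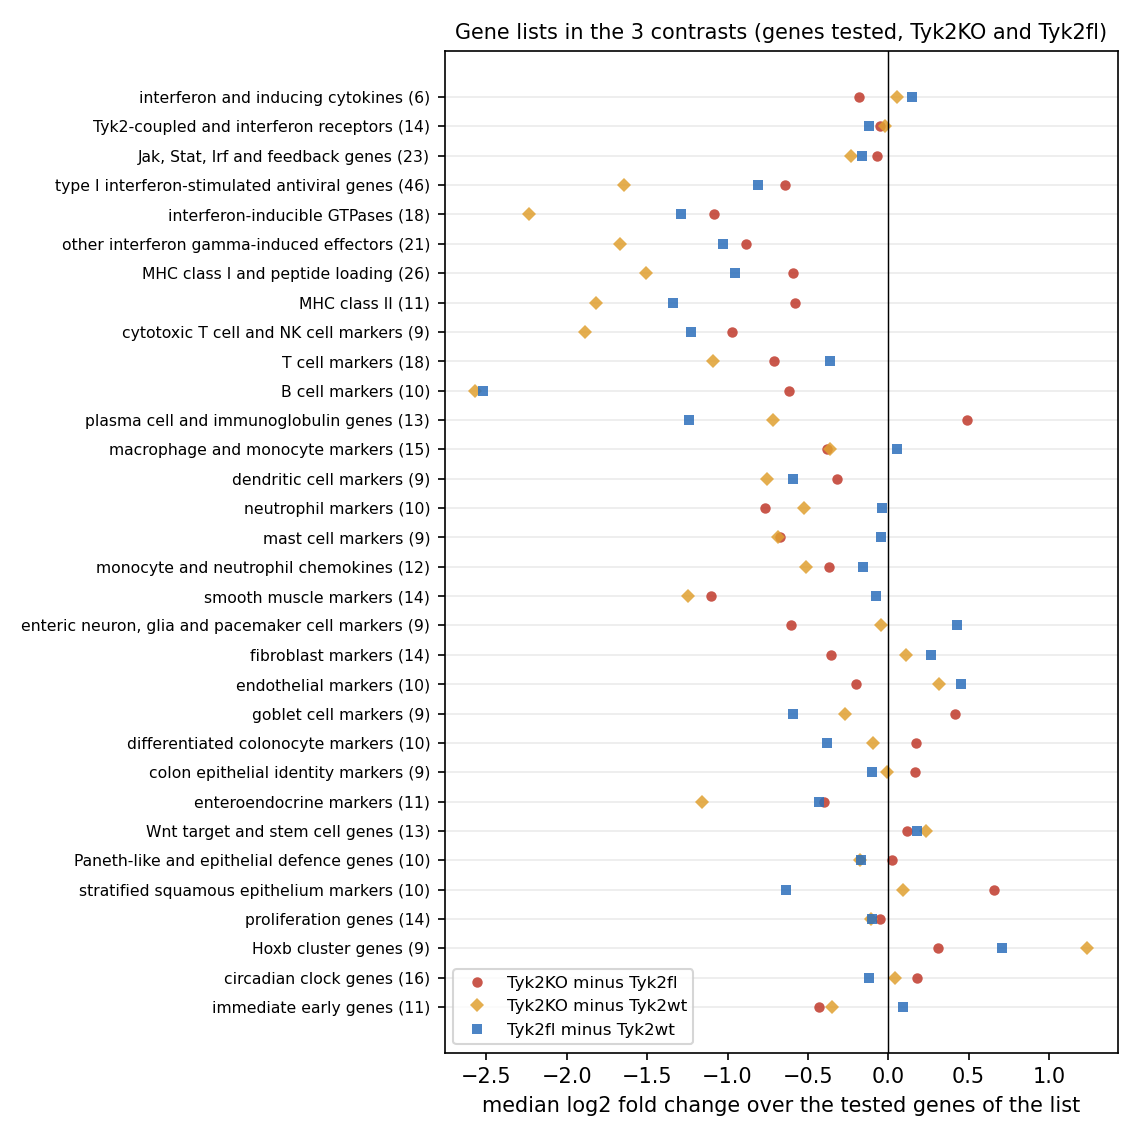
Median log2 fold change of each gene list in Tyk2KO minus Tyk2fl, Tyk2KO minus Tyk2wt and Tyk2fl minus Tyk2wt, with the number of genes tested in the first. For the interferon-induced and MHC lists the Tyk2KO minus Tyk2fl point lies between 0 and the Tyk2KO minus Tyk2wt point, while for smooth muscle markers both lie near each other and Tyk2fl minus Tyk2wt near 0.

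Outside the lists, 13 losses held. Ifi209, Ifi203 and Mndal belong to the interferon-induced Ifi200 family of DNA-binding proteins, which lie side by side on chromosome 1 and resemble each other, so that reads can be split between them. Ifi209 was at 0.229, 0.438 and 0.465 CPM in Tyk2KO and between 1.21 and 2.70 CPM (median 1.92) in Tyk2fl libraries, without overlap (log2 difference -2.30, SE 0.36, adjusted p = 0.00753, edgeR). Dio2, which activates thyroid hormone, was at 2.43, 5.79 and 5.30 CPM against 6.98 to 28.7 CPM (log2 difference -1.97, adjusted p = 0.0436). It differed by 0.16 on the log2 scale between Tyk2fl and Tyk2wt (adjusted p = 0.850). Rgs1, a regulator of G protein signaling in lymphocytes, overlapped between groups (-1.56, adjusted p = 0.0479). Others were Gm42047, Gm4951, Ms4a4c, Gm47283, Crispld2, Gm8995 and Klra2, and of all 13 those outside the naming rule (Ifi203, Mndal, Rgs1 and Crispld2 among them) are named after their values were seen. Gm47283 is annotated on the Y chromosome. It was at 5.16 to 7.39 CPM in Tyk2KO and at 14.7, 17.5 and 16.4 CPM in Tyk2fl replicates 1 to 3. Tyk2fl replicate 4 was at 6.25 CPM and replicates 5 to 7 were at 16.85, 35.45 and 22.95 CPM. The Tyk2wt libraries were at 10.98 to 19.88 CPM. The part of sex in the difference of Gm47283 was not tested.

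Ccl7, a chemokine for monocytes, was the 1 loss of 12 monocyte and neutrophil chemokines, where 1.21% of all genes were lost, and it held. It was at 3.71, 3.46 and 4.14 CPM in Tyk2KO, between 6.38 and 19.6 CPM (median 15.6) in Tyk2fl and at 7.94, 10.6 and 8.20 CPM in Tyk2wt libraries. Here the Tyk2fl median lay above all Tyk2wt libraries, and the log2 difference was -1.87 to Tyk2fl (SE 0.32, adjusted p = 0.0097, edgeR) and -1.24 to Tyk2wt (adjusted p = 0.0116). Dpt, a matrix protein of fibroblasts, held as well (-1.05, adjusted p = 0.0127), without overlap.

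Few lymphocyte markers were called against Tyk2fl, 1 of 18 T cell, 0 of 9 cytotoxic and 0 of 10 B cell markers by edgeR, where 1.11% of all genes were called lower. All 18 tested T cell markers had a log2 difference below 0 against Tyk2fl (median -0.71), and 1, Trbc1, was called (-1.07, adjusted p = 0.0353, edgeR). The summed level of the T cell list was 29.4 to 37.2 CPM in Tyk2KO, 43.0 to 67.7 CPM in Tyk2fl and 57.2 to 70.2 CPM in Tyk2wt libraries, so Tyk2KO lay below both groups. Cytotoxic T cell and NK cell markers summed to 5.21 to 5.59 CPM in Tyk2KO, 6.09 to 11.5 CPM in Tyk2fl and 14.6 to 22.8 CPM in Tyk2wt libraries. Of 9 tested, none was called against Tyk2fl by edgeR or limma voom, 1 by DESeq2, and 5 had an unadjusted p under 0.05 in edgeR. Gzmb, a killer cell protease, was at 1.28, 1.31 and 1.39 CPM in Tyk2KO and between 1.82 and 3.17 CPM (median 2.69) in Tyk2fl libraries, and it passed the adjusted p (0.0361) at -0.91. Against Tyk2wt, where 1.21% of all genes were lower, 6 of 18 T cell and 7 of 8 cytotoxic markers were lost, and none of these held. The T cell and cytotoxic markers moved with the interferon-induced genes, and their part in those results was not tested.

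Of the 10 tested B cell markers 9 had a log2 difference below 0 against Tyk2fl, 2 had an unadjusted p under 0.05, and DESeq2 called 1 and limma voom 0. B cell markers summed to 8.56 to 11.1 CPM in Tyk2KO, 9.92 to 28.6 CPM in Tyk2fl and 26.6 to 128 CPM in Tyk2wt libraries. Ms4a1, which marks B cells, had 0 to 2 counts in Tyk2KO and 2 to 61 counts in Tyk2fl libraries. Macrophage markers were lower with a passed adjusted p below 2-fold in 3 of 15 cases, where 2.96% of all genes were lower by the adjusted p alone, among them C1qa (-0.54, adjusted p = 0.0289). Colon epithelial identity markers, which show the labelled tissue, summed to 10588 to 11166 CPM in Tyk2KO and 7894 to 13418 CPM in Tyk2fl libraries, with overlapping groups and a median log2 difference of 0.17. Proliferation genes and Wnt target and stem cell genes had medians of -0.05 and 0.11.

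Smooth muscle markers showed another kind of loss. Against Tyk2wt 7 of 13 were lower and against Tyk2fl none of 14 was called by edgeR or limma voom (1 by DESeq2, 8 with an unadjusted p under 0.05 in edgeR), although the medians were alike (-1.25 and -1.10). Over all genes 1.21% were lower against Tyk2wt and 1.11% against Tyk2fl by edgeR. The list's mean log2(CPM + 1) was 3.32 to 3.87 in Tyk2KO libraries. Tyk2fl replicates 1, 5 and 7 lay within that range (3.34, 3.75 and 3.61), and replicates 2, 3, 4 and 6 above it (4.95, 4.07, 5.45 and 5.21). Tagln, an actin-binding protein of smooth muscle, was at 29.3, 32.5 and 42.2 CPM in Tyk2KO, between 37.5 and 174 CPM (median 65.2) in Tyk2fl and at 93.3, 55.8 and 98.4 CPM in Tyk2wt libraries. Its log2 difference to Tyk2fl was -1.35 with an SE of 0.47 (adjusted p = 0.102), and Tyk2fl and Tyk2wt differed by 0.12 (adjusted p = 0.904). Vip, a neuropeptide of enteric neurons, was listed at 0 in 2 Tyk2KO libraries and at 0 to 8.80 CPM in Tyk2fl libraries. These losses missed the threshold with a wide spread between Tyk2fl libraries and no called difference between the control groups.

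Of the 198 genes lower against Tyk2fl, 98 could be tested against Tyk2wt, and those not called there were mostly pseudogenes. The 121 pseudogenes called lower summed to 80.5 to 86.8 CPM in Tyk2KO, 235 to 318 CPM in Tyk2fl and 97.2 to 118 CPM in Tyk2wt libraries, and their median log2 difference between Tyk2fl and Tyk2wt was 1.46. They were chosen as high in Tyk2fl against Tyk2KO, so these values describe the choice and are no independent support. Only 38 of the 121 could be tested against Tyk2wt. Of the 121, 115 are processed pseudogenes, copies of spliced RNA whose reads can be shared with the parent gene. Over all 874 pseudogenes tested the median difference of Tyk2KO to Tyk2fl was -0.56. Pseudogenes took 0.235% to 0.261% of all counts in the Tyk2fl libraries, 0.197% to 0.204% in Tyk2KO and 0.204% to 0.218% in Tyk2wt. In the Tyk2DIEC libraries, which share a table with Tyk2fl, the share was 0.199% to 0.213%, so the higher share was found in the Tyk2fl libraries and not in the other libraries of their table. The greater depth of the Tyk2fl libraries moved with it, and with these libraries thinned to the depth of the others 161 genes were called lower in place of 198.

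Among protein-coding genes of this kind, Slc15a2, a peptide transporter, was at 2.89, 2.53 and 1.81 CPM in Tyk2KO, between 2.92 and 25.1 CPM (median 18.2) in Tyk2fl and at 7.66, 8.55 and 3.34 CPM in Tyk2wt libraries (-2.74 to Tyk2fl, adjusted p = 0.0241, edgeR). Chil3, a chitinase-like protein of macrophages and neutrophils, was at 0.0916, 0.243 and 0.372 CPM in Tyk2KO and between 0.668 and 1.92 CPM (median 1.57) in Tyk2fl libraries (-2.53, adjusted p = 0.0134). Ngp, a granule protein of immature neutrophils, was listed at 0, 0 and 0.0465 CPM in Tyk2KO and between 0.203 and 1.96 CPM (median 1.35) in Tyk2fl libraries (adjusted p = 0.0127). Spp1, encoding osteopontin, was at 43.2, 61.5 and 51.0 CPM against 95.5 to 234 CPM (median 213), without overlap (-1.74, adjusted p = 0.0111). Lcn2, an antibacterial iron-scavenging protein, was at 110, 114 and 132 CPM in Tyk2KO and between 121 and 357 CPM (median 263) in Tyk2fl libraries (-1.08, adjusted p = 0.0329).

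**Figure D5:**
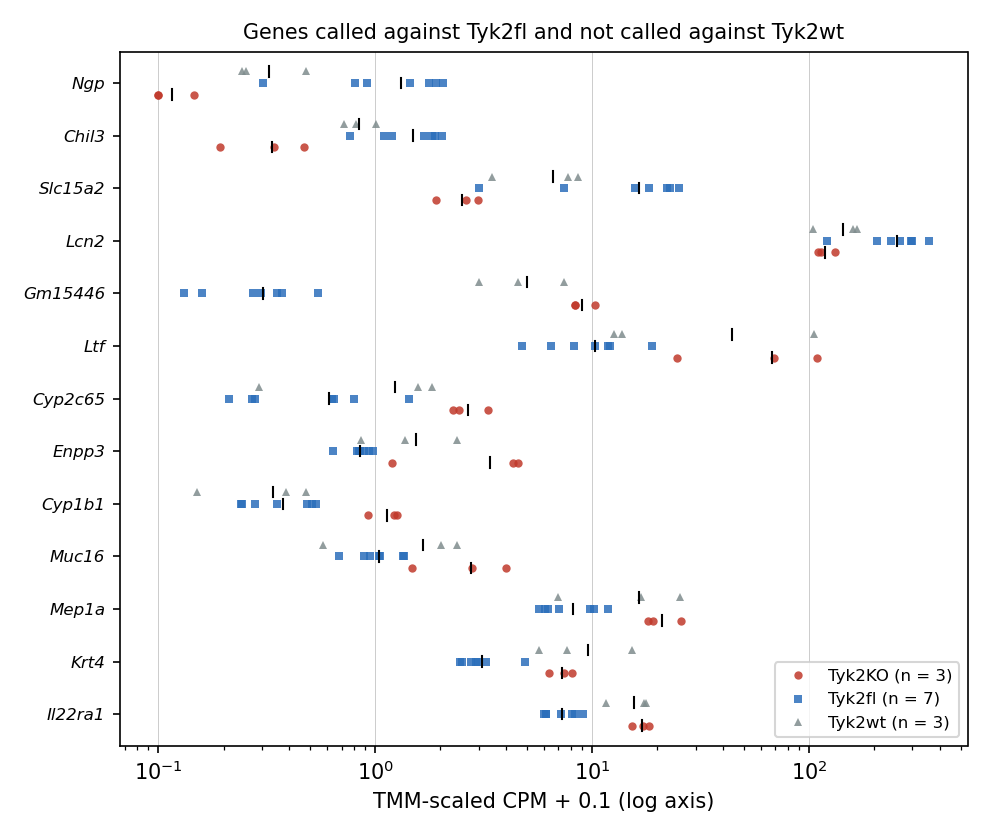
CPM plus 0.1 on a log axis in every library for 13 genes called against Tyk2fl and not called against Tyk2wt, with a black tick at the group mean (Ngp was not tested against Tyk2wt). The upper 4 genes are lower and the others higher in Tyk2KO than in Tyk2fl, and for Gm15446, Krt4 and Il22ra1 the Tyk2wt libraries lie with Tyk2KO.

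Of the 86 genes higher in Tyk2KO than in Tyk2fl, 4 were also called higher against Tyk2wt, where 0.0927% of genes were. In 28 of the 86 Tyk2wt was also higher than Tyk2fl at an adjusted p under 0.05, where 3.0% of all genes tested between the control groups were. The 86 were chosen with the same Tyk2KO and Tyk2fl libraries, so both counts describe the choice and are no independent support. Gm15446, a gene on chromosome 5, had 8.20, 8.27 and 10.2 CPM in Tyk2KO and 0.0314 to 0.444 CPM (median 0.199) in Tyk2fl libraries (log2 difference 5.43, SE 0.40, adjusted p = 7.36e-05, edgeR). The Tyk2wt libraries had 7.32, 2.90 and 4.43 CPM, and Tyk2fl was lower than Tyk2wt by 4.55 on the log2 scale (adjusted p = 0.000802). Ltf, encoding lactoferrin, was at 24.6, 108 and 69.1 CPM in Tyk2KO, between 4.65 and 18.9 CPM (median 10.2) in Tyk2fl and at 13.7, 12.5 and 106 CPM in Tyk2wt libraries, so that 1 Tyk2wt library was as high as the Tyk2KO libraries (2.73 to Tyk2fl, adjusted p = 0.00624). Ltf is on the list of neutrophil markers, of which 8 of 10 tested had a log2 difference below 0 (median -0.77), with Ngp called lower and Ltf higher, 6 lower and 1 higher at an unadjusted p under 0.05.

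Cyp1b1, a target of the aryl hydrocarbon receptor, was at 0.825, 1.12 and 1.16 CPM in Tyk2KO and between 0.140 and 0.436 CPM (median 0.251) in Tyk2fl libraries (1.91, adjusted p = 0.0152, edgeR), and at 0.0509 to 0.380 CPM in Tyk2wt libraries (2.07, adjusted p = 0.0653). The study, which used DESeq2, lists Cyp1b1 among the genes higher in Tyk2KO than in wild-type tumors. Mep1a, a brush border protease, was at 25.6, 18.0 and 19.0 CPM against 5.62 to 11.7 CPM (median 6.97) in Tyk2fl (1.39, adjusted p = 0.00846). Cyp2c65 and Cyp2b10, enzymes of drug and lipid metabolism, had log2 differences of 2.35 (adjusted p = 0.0303) and 1.53 (adjusted p = 0.0136). Krt4, a keratin of stratified squamous epithelium, was at 6.23, 7.30 and 7.95 CPM against 2.35 to 4.78 CPM (median 2.81), and at 5.56 to 15.2 CPM in Tyk2wt (1.27 to Tyk2fl, adjusted p = 0.00847). The squamous list summed to 129 to 298 CPM in Tyk2KO and 92.4 to 260 CPM in Tyk2fl libraries, overlapping, and its part in the rise of Krt4, Calml3 and Spink5 was not tested.

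Of 90 immunoglobulin V genes tested 19 were higher in Tyk2KO and none lower, where 0.481% and 1.11% of all genes were. Those 19 summed to 27.3 to 82.6 CPM in Tyk2KO, 5.24 to 16.7 CPM in Tyk2fl and 29.8 to 43.1 CPM in Tyk2wt libraries. The 19 were chosen by their call, so their values against Tyk2fl follow from the choice and are no independent support. Over all 90 the Tyk2KO libraries had 62.4 to 210 CPM and the Tyk2fl libraries 20.2 to 101 CPM, with overlap. The list of plasma cell and immunoglobulin genes summed to 1122 to 2139 CPM in Tyk2KO and 921 to 1974 CPM in Tyk2fl libraries. These also overlapped, and 0 of its 13 tested genes were called. The 19 had a median log2 difference of 2.52 to Tyk2fl, of 1.28 to Tyk2wt and of -1.71 between Tyk2fl and Tyk2wt over the 17 tested there. V genes are near-identical copies, and single members are uncertain. Of 16 clock genes 4 were higher and none lower by the adjusted p, with 4 log2 differences below 0, 2 of them at an unadjusted p under 0.05. Those that passed were Arntl at 0.52 (adjusted p = 0.00955, edgeR), Per2 at 0.63, Per3 at 0.81 and Tef at 0.51, all below 2-fold, where 3.31% of all genes were higher by the adjusted p alone.

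Many calls were lost when any Tyk2KO library was left out, which also leaves fewer libraries in the fit. Without replicate 1, 2 or 3, the losses that held numbered 10, 7 and 20 in place of 34, although 34, 32 and 33 of the original losses stayed over 2-fold lower than Tyk2fl. Leaving out single Tyk2fl libraries gave 24 to 45, and with Tyk2fl replicates 1 to 3, 4 to 7 or 5 to 7 alone 33, 33 and 24 held. Of the 34, 24, 27 and 22 kept their call against these subsets, and all 34 stayed lower in direction. With replicates 5 to 7 alone B2m, Nlrc5, Tap1, Oas3, Apol9a, Trim30a, Dio2, Klra2, Ms4a4c, Gm8995, Gm4951 and Gm42047 lost the call, B2m with a log2 difference of -0.84 and Dio2 with -1.01. With replicates 4 to 7 alone Dio2, Klra2, Ms4a4c, Gm8995, Gm4951, Gm42047 and Gm47283 lost it, and replicate 4 with its unlike sex-linked genes stays in that subset. The calls of 7 genes against Tyk2fl were kept in all 10 fits without 1 library, in 15 other alternatives and in a test against 1.5-fold. They were Ifi27l2a, Ifi209, Ifi44, Oas2, Oasl2, Slfn5 and Rtp4.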

How the data were processed

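The authors deposited raw read counts per gene, made with STAR 2.6.1a on GRCm38 per the submitters' processing notes, in 2 tables, 1 for the Tyk2KO and Tyk2wt and 1 for the Tyk2fl and Tyk2DIEC libraries. Groups came from the genotype labels. The tables were joined on gene identifiers, and the Tyk2DIEC libraries were used only in an alternative fit. Low genes were removed with filterByExpr (its minimum count at 10 and minimum total at 15). After TMM scaling, each pair of groups was compared with edgeR 4.0.16 (quasi-likelihood F test, R 4.3.3), with Benjamini-Hochberg adjustment over all genes tested. Called means an adjusted p under 0.05 and over 2-fold. Levels are TMM-scaled CPM, a gene's share of its library's counts, over the 13 Tyk2KO, Tyk2fl and Tyk2wt libraries. The fits were tested on simulated data. Totals of 19789347 to 35427965 counts limit the precision of genes with few counts.

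The rule named 235 genes: those the study names, the largest changes, and up to 4 members of each list by adjusted p. Members and lists were chosen with earlier results of these data known. Alternatives were limma 3.58.1 (voom), DESeq2 1.42.0, other scalings and filters, joint fits, a replicate block, leaving out libraries, and thinned Tyk2fl libraries; Tyk2fl replicates 1 to 4 only, 5 to 7 only and protein-coding genes only were chosen after seeing the data. How reads shared between gene copies or overlapping genes were counted is not given in the sources used here. Promoter sequences are from RefSeq (GRCm38.p6). Same-numbered libraries of the groups share only a number. Some genes are not reported here.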

Additional observations from a re-analysis of the deposited data

Results flagged for a closer look

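Among 67 genes looked at, 2 had a library in the 7 Tyk2fl libraries that stood apart from the others, where chance gives about 1 in 20 groups. Ackr4, a decoy receptor for chemokines, was at 2.46 CPM in Tyk2fl replicate 2 against a Tyk2fl median of 0.840 CPM. Krt4 was at 4.78 CPM in Tyk2fl replicate 3 against a median of 2.81 CPM, which is below the lowest Tyk2KO library (6.23 CPM).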

How the results depend on the processing

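The 198 lower genes, 86 higher genes and 34 losses that held changed most with the call rule and the Tyk2KO libraries. DESeq2 left 58 losses that held and limma voom 17. The stricter low-count filter gave 122 lower genes, and leaving out ribosomal, mitochondrial, immunoglobulin and pseudogene rows gave 60, where 77 of the 198 were other genes. A test against 1.5-fold gave 31 lower, 11 higher and 7 held, no fold minimum gave 530, 591 and 78, and protein-coding genes alone gave 71 lower and 53 higher. Leaving out 1 library gave 47 to 214 lower, 28 to 106 higher and 7 to 45 held. The low ends came without Tyk2KO replicate 2 (47, 28 and 7), and Tyk2KO replicates 1 (57, 47 and 10) and 3 (102, 41 and 20) and Tyk2fl replicate 2 (130 lower) also moved counts by over 1.5 times. The cause was not tested, beyond the fewer samples or genes each of these fits holds. With the replicate number as a block 197 genes were lower, 100 higher and 34 losses held; correlations of same-numbered libraries were 0.082, -0.0407 and 0.123, so the numbers were not taken as pairs. No result reversed. Of 5665 values of 220 single genes under the alternatives, 5231 kept direction and side of the threshold, 245 lost the call, 128 gained it and 61 moved. Genotype and count table cannot be told apart between Tyk2KO and Tyk2fl, and genes with a few counts per library could not be tested.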
